A study of Mus musculus with 48 samples.

Results

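*Nrde2*-KO mouse embryonic stem cells (mESCs) and their wild-type (WT) controls, both treated with cycloheximide (CHX), were compared by RNA-seq over 15372 of the 55335 genes in the deposited table. These genes had a mean of at least 0.5 CPM (reads of a gene scaled to the size of its library) over the 4 libraries compared, and all of them were tested. Closest to this limit, *Wnt10a* with a mean of 0.50002 CPM and *Tnfrsf11b* with 0.5003 CPM were inside, and *Gm6368* with 0.49995 CPM and *CR555305.3* with 0.499 CPM were outside. The cells were male mESCs of a 129-C57BL/6 hybrid background with a heterozygous Cre-ERT2 in the Rosa26 locus, a Cre recombinase that 4-hydroxytamoxifen (4OHT) activates, and with loxP sites around part of *Nrde2*. They were grown in serum with LIF and 2i inhibitors. *Nrde2*-KO cells received 100 nM 4OHT for 4 d, and the WT cells were uninduced conditional cells without 4OHT, so an effect of 4OHT itself and the loss of *Nrde2* cannot be told apart. CHX was given to both groups at 0.1 mg/ml for 4 h. The same experiment holds both groups without CHX, and each of the 4 groups has 2 libraries. The edited line derives from a clone, and nothing in the labels says that the libraries of a group came from separate cultures, so the p-values measure only the spread between these libraries, which may be technical.

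NRDE2 is a nuclear protein that binds the exosome helicase MTREX and, with CCDC174, acts with the spliceosome at 5′ splice sites (5′SSs). CHX stops translating ribosomes and thereby blocks nonsense-mediated decay, the surveillance that degrades mRNAs with premature stop codons, so that transcripts normally lost can accumulate. Blocking translation also raises short-lived mRNAs such as those of immediate early genes and depletes unstable proteins, among them p53 and its ubiquitin ligase MDM2. The comparison with CHX addresses what changes in *Nrde2*-KO cells when translation-dependent RNA surveillance is stopped.

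The study names introns of *Cdk2*, *Tti1* and *Dnmt1* as places where splicing needs NRDE2, and each 5′SS is shown with one of the same gene that has a closer match to the consensus. The sequences are 30 bases of GRCm38, all on the minus strand and written 5′ to 3′. Capitals mark the 9 donor positions, the end of the exon and the start of the intron, which were compared with the consensus CAGGTAAGT.
*Cdk2* intron 1 (chr10:128704691-128704720), which matched 7 of 9 positions: gctcgaCACGTGAGTggcctccggagccgg
*Cdk2* intron 2 (chr10:128703905-128703934), which matched 8: tatcgtCAAGTAAGTctgctctgagagatg
*Tti1* intron 5 (chr2:157995360-157995389), which matched 5: gccttcAAGGTACTGacacccctgtctgtc
*Tti1* intron 7 (chr2:157992947-157992976), which matched 8: tgccagGAGGTAAGTctgcttcatcacctg
*Dnmt1* intron 10 (chr9:20932094-20932123), which matched 5: ggaaaaAAGGCAAAGtccttactatctaag
*Dnmt1* intron 3 (chr9:20941678-20941707), which matched 8: ttatctGAGGTAAGTctgtcctttttccca
The introns named by the study are the first of each pair. That of *Dnmt1* starts with GC, as do 1.11% of the 240827 introns of the GENCODE M21 basic annotation, whereas 97.6% start with GT. The pairs do not show that a named site has the lowest match of its gene. *Cdk2* introns 3, 5 and 6 matched 6, 5 and 6 positions, fewer than intron 1. *Dnmt1* intron 29 matched 4, fewer than intron 10, while no intron of the *Tti1* transcript matched fewer than intron 5.

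The 4 libraries with CHX held between 32521489 and 35307244 reads in genes, and the 8 libraries of the experiment at least 28683644. Levels are given below as normalized CPM, which is the deposited CPM divided by a scaling factor per library between 0.920 and 1.10. Where 2 pairs of levels are given, the 2 WT libraries come first and the 2 *Nrde2*-KO libraries follow, and a number in brackets after them is the log2 fold change of *Nrde2*-KO over WT. log2 levels of the 2 libraries of a group correlated across genes with r between 0.994 and 0.997. The 5 mESC markers (*Pou5f1*, *Sox2*, *Nanog*, *Zfp42* and *Esrrb*) summed to between 2582 and 2661 normalized CPM in WT and between 2253 and 2307 in *Nrde2*-KO libraries with CHX, and none was called changed. The 5 fibroblast markers summed to between 3.88 and 4.09 in WT and between 3.46 and 3.66 in *Nrde2*-KO libraries, with *Dcn* between 0.0482 and 0.0752 in all 4.

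The level of *Nrde2* itself was not lower in *Nrde2*-KO cells with CHX. Without CHX it stood at 53.6 and 52.2 normalized CPM in the WT libraries and at 20 and 19.7 in the *Nrde2*-KO libraries. With CHX it stood at 244 and 226 in WT and at 259 and 250 in *Nrde2*-KO libraries, above every library without CHX. The log2 fold change of *Nrde2*-KO over WT was −1.40 (SE 0.09, adjusted p = 1.9e-08) without CHX and 0.12 (SE 0.06, adjusted p = 0.12) with CHX, and the difference of these effects was 1.52 (SE 0.09, adjusted p = 9.1e-07, limma interaction term). The loxP sites flank exons 5 and 6 of the 14 exons of *Nrde2*, on mm10 at chr12:100143739-100144189 and chr12:100141893-100142298 on the minus strand. These exons hold 857 bases, 23.05% of the 3718-base transcript, and 857 leaves a remainder of 2 when divided by 3, so that joining exon 4 to exon 7 shifts the reading frame. The table counts reads over the whole gene, undeleted exons included, and with CHX both *Nrde2*-KO libraries were above both WT libraries in this count, so the deletion was not tested at the level of exons. Of the 23 other listed genes of the exosome, its adaptors and NRDE2 partners, none was called changed with CHX, and *Mtrex* was at 219 and 221 in WT and 210 and 219 in *Nrde2*-KO libraries (log2 fold change −0.04).

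Genes counted as up- or down-regulated where the adjusted p was below 0.01 (limma, Benjamini-Hochberg) and the log2 fold change lay beyond 1 or −1, which are the study's thresholds. With CHX, 471 genes were up-regulated, which is 3.06% of the genes tested, and 262 were down-regulated, which is 1.70%. Thus 64.3% of the 733 called genes were higher in *Nrde2*-KO cells, while over all genes tested the log2 fold changes had a median of 0.01. At any size of change, called genes included, 4347 genes had an adjusted p below 0.01, with the spread estimated over all 8 libraries with CHX. In every called gene, both libraries of one group were above both of the other. The thresholds favour such genes, and the share over all genes is not given here, so this is no separate support for the calls. The up-regulated genes were mostly low in WT cells, with a median of 0.942 normalized CPM in WT and 3.10 in *Nrde2*-KO cells, and 140 of them passed the limit of 0.5 CPM only through their level in *Nrde2*-KO cells. The down-regulated genes were of higher level, with a median of 11.3 in WT and 4.26 in *Nrde2*-KO cells, and 27 had a *Nrde2*-KO mean under 0.5. The log2 fold change was above 2 in 67 genes and below −2 in 13. edgeR on the reads called 466 of the 471 and all 262, and DESeq2 422 and 258. Without the first *Nrde2*-KO library with CHX, 309 genes were up-regulated.

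**Figure D1:**
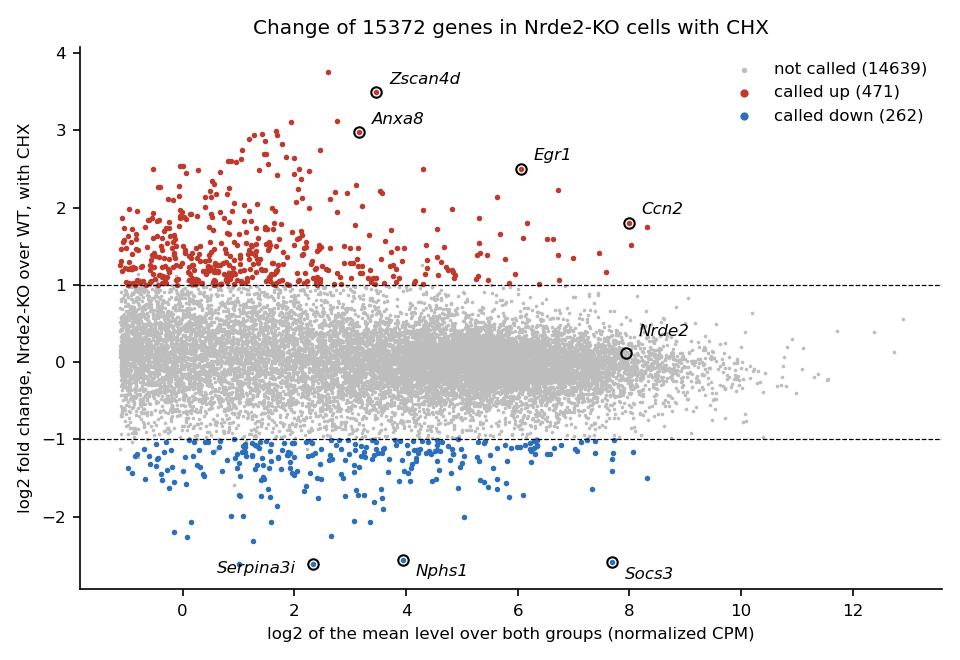
Change of each of the 15372 genes with CHX (y axis, log2 fold change of *Nrde2*-KO over WT) against its mean level over both groups (x axis, log2 normalized CPM). Red points are the 471 up-regulated and blue points the 262 down-regulated genes, dashed lines mark log2 fold changes of 1 and −1, and circles mark 8 genes, with *Zscan4d*, *Anxa8*, *Egr1* and *Ccn2* above, *Socs3*, *Nphs1* and *Serpina3i* below, and *Nrde2* near 0.

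The largest increases with CHX were in genes of the 2C program, which marks the totipotent 2-cell stage and a rare state of mESC cultures. *Zscan4d*, a member of the ZSCAN4 family that is expressed in this state, was at 1.61 and 1.58 normalized CPM in WT and at 22.1 and 19.1 in *Nrde2*-KO libraries with CHX (log2 fold change 3.49, SE 0.35, adjusted p = 3.3e-05). *Usp17lb*, a deubiquitinase gene, was at 0.457 and 0.801 in WT and at 12.4 and 10.5 in *Nrde2*-KO libraries (3.76, SE 0.28, adjusted p = 4.7e-06), the largest increase among the genes called. Of 44 listed 2C genes 27 were tested, and 25 were up-regulated with CHX against 3.06% of all genes, with none down-regulated. The median log2 fold change over the 27 was 2.26. Because 14 of the 27 had a WT mean under 0.5 CPM and so passed the limit through *Nrde2*-KO cells, this count is not a count over the whole list. All 8 tested *Zscan4* genes and all 5 tested *Usp17l* genes were up-regulated. Their sequences are near identical, and reads that map to more than 1 place were not counted, so the split of reads between family members is uncertain.

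Other 2C genes rose from lower levels. *Duxf3*, which encodes the DUX factor that starts this program, went from 0.217 and 0.170 to 0.816 and 0.853 (1.29, SE 0.21, adjusted p = 0.00075), a difference of 9 and 7 against 33 and 34 reads. *Zfp352*, a zinc finger gene of the 2-cell stage, went from 0.169 and 0.388 to 1.85 and 1.48 (1.88, SE 0.27, adjusted p = 0.00032). *Arg2*, arginase 2, went from 0.578 and 0.340 to 3.39 and 2.81 (2.26, SE 0.25, adjusted p = 6.4e-05). *Pramel7* and *Zfp54* were the members tested and not called, at 0.27 and 0.77. In bulk RNA more cells in a state and more RNA per cell cannot be told apart. The 2C genes were also high without CHX, with 24 of 27 up-regulated and a median of 2.96, and none had a called difference between the effects with and without CHX. The difference had a median of −0.52 over the list and was below 0 in 25 of its 27 genes. It reached an unadjusted p below 0.05 in 5 genes, against 2296 of all 15372. Of these 5 genes, 2 had a difference above 0. *Ddit4l* was 1 of the 2 with a positive difference (1.37, SE 0.33, adjusted p = 0.047). It was at 4.33 and 2.72 in WT and 17.8 and 12.1 in *Nrde2*-KO libraries with CHX (2.02) and at 14.0 and 10.5 against 19.7 and 18.5 without CHX (0.64).

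Of the 10 largest increases, 4 were in gene models without a name. *Gm8300* (3.12), *Gm2016* (2.89) and the processed pseudogene *Gm18983* (2.93), all on chromosome 12, and *Gm12794* on chromosome 4 (2.99) rose in both *Nrde2*-KO libraries. These belong to groups of similar genes and carry the same uncertainty of unique mapping. *Anxa8*, which encodes a calcium-dependent membrane-binding annexin, was at 2.5 and 1.19 in WT and at 20.7 and 11.5 in *Nrde2*-KO libraries (2.98, SE 0.30, adjusted p = 3.4e-05). In both groups the first library was the higher, and the groups did not overlap.

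Targets of the tumour suppressor p53, which encode cell cycle inhibitors, proapoptotic proteins and regulators of p53 itself, were up-regulated with CHX. Of 27 listed targets 26 were tested, and 13 were up-regulated with CHX and none down-regulated, against 3.06% of all genes. Without CHX 1 was called, *Trp53inp1*. The median log2 fold change over the 26 genes was 0.85 with CHX and 0.27 without. The log2 fold change with CHX was above 0 in 23 of the 26 genes. In WT cells 20 of these genes were lower with CHX than without, with a median ratio of 0.50, while in *Nrde2*-KO cells the median ratio was 0.83. The share and median ratios over all genes are not given here.

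*Ccng1*, cyclin G1, shows the pattern. It stood at 429 and 386 normalized CPM in WT and 694 and 701 in *Nrde2*-KO libraries without CHX. With CHX it stood at 152 and 119 in WT and 439 and 338 in *Nrde2*-KO libraries (log2 fold change 1.52, SE 0.13, adjusted p = 1.1e-05). With CHX the first *Nrde2*-KO library was above and the second below both WT libraries without CHX, and the WT libraries with CHX were the lowest. *Plk2*, a polo-like kinase, had the largest change of the group, from 47.2 and 27.2 in WT to 217 and 131 in *Nrde2*-KO libraries with CHX (2.23, SE 0.28, adjusted p = 0.00014), against 89.5 and 72.2 and then 162 and 160 without CHX (1.00). *Mdm2*, the ubiquitin ligase that degrades p53, was at 102 and 87.7 in WT and 299 and 214 in *Nrde2*-KO libraries with CHX (1.42, SE 0.13, adjusted p = 2.2e-05).

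*Cdkn1a*, the CDK inhibitor p21, was at 18.0 and 13.4 in WT and 41.5 and 32.6 in *Nrde2*-KO libraries with CHX (1.23, SE 0.15, adjusted p = 0.00010). Without CHX it was at 78.2 and 53.6 in WT and 86.7 and 73.1 in *Nrde2*-KO libraries, where the groups overlapped (0.30). *Phlda3*, an inhibitor of AKT, was at 20.5 and 13.4 and then at 72.6 and 51.2 with CHX (1.86, SE 0.19, adjusted p = 4.0e-05). The receptor gene *Eda2r* was at 36.1 and 30.8 and then at 109 and 96.1 (1.61, SE 0.10, adjusted p = 1.4e-06). The proapoptotic BH3 genes *Bbc3* (1.48) and *Pmaip1* (1.17), the antiproliferative gene *Btg2* (1.80) and the translesion polymerase gene *Polk* (1.52) rose as well.

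In each of the 13 targets the first library with CHX was above the second, in WT as in *Nrde2*-KO cells. The share of all genes with this order is not given here. Over all genes tested, replicate differences of the 2 groups with CHX correlated at 0.22. Without the first *Nrde2*-KO library 10 targets were up-regulated, and *Sesn2* (0.80), *Pmaip1* (0.98) and *Gdf15* (0.95) were no longer called. Without the second WT library with CHX 11 were, with *Sesn2* at 0.96 and *Gdf15* at 1.06 (adjusted p = 0.026). *Bax*, a proapoptotic target, was at 75.2 and 76.1 in WT and 79.8 and 73.0 in *Nrde2*-KO libraries with CHX (log2 fold change 0.01). No p53 target had a called difference between the effects with and without CHX. The difference had a median of 0.71, was above 0 in 24 of 26 genes, and was above 0 with an unadjusted p below 0.05 in 18 of them, against 8.58% of all genes. *Eda2r* had the lowest adjusted p among them, with a difference of 0.98 (SE 0.14, adjusted p = 0.0031), below the threshold of 1.

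Immediate early genes, transcription factors and phosphatases that cells switch on within minutes of a signal, were in part up-regulated in *Nrde2*-KO cells with CHX. Of the 37 tested of 40 listed immediate early and short-lived genes, 5 were up-regulated with CHX, against 3.06% of all genes, and 1, *Socs3*, was down-regulated, against 1.70%. In WT cells 28 of the 37 were higher with CHX than without and 9 were lower. The median ratio of the level with CHX to that without was 2.78 in WT and 2.48 in *Nrde2*-KO cells. Neither this ratio nor the share of higher genes is given here over all genes. Without CHX none was called. *Egr1*, an early growth response transcription factor, was under 0.53 normalized CPM in the 4 libraries without CHX. With CHX it was at 16.6 and 23.1 in WT and at 127 and 98.6 in *Nrde2*-KO libraries (log2 fold change 2.5, SE 0.20, adjusted p = 7.4e-06). *Jun*, a subunit of the AP-1 transcription factor, was at 21 and 14.4 in WT and 107 and 55.8 in *Nrde2*-KO libraries with CHX (2.14, SE 0.27, adjusted p = 0.00014). Its log2 fold change without CHX was 0.43.

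*Egr2* was at 1.18 and 1.68 in WT and at 7.40 and 6.14 in *Nrde2*-KO libraries with CHX (2.08, SE 0.26, adjusted p = 0.00013), and at 0 to 0.117 without CHX. *Fos*, the AP-1 partner of *Jun*, was at 23.9 and 24.1 and then at 62.3 and 41.3 (1.07, SE 0.18, adjusted p = 0.00091), and *Atf3*, a stress-responsive repressor, at 16.3 and 12.9 and then at 41.8 and 24.6 (1.13, SE 0.20, adjusted p = 0.0010). Without the first *Nrde2*-KO library with CHX the values were 0.78 for *Fos* (adjusted p = 0.011) and 0.75 for *Atf3*, so 3 genes of the list remained called up. Without the second WT library *Atf3* was at 0.96. Members did not all move together. *Junb*, another AP-1 subunit, had a log2 fold change of −0.52, *Ier2* one of 0.42 and *Myc* one of −0.40 (adjusted p = 0.099).

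With CHX 5 of the 29 tested genes of the list of annexins, cytoskeletal genes and genes that respond to the coactivator YAP were up-regulated, namely *Ccn2*, *Ccn1*, *Ankrd1*, *Thbs1* and *Anxa8*, against 3.06% of all genes, and 1, *Vim*, was down-regulated, against 1.70%. *Thbs1* and *Anxa8* (2.7) were up-regulated without CHX too. The median over the list was 0.05 with CHX. *Ccn2* and *Ccn1* encode secreted matricellular proteins. *Ccn2* was at 22.2 and 25.3 normalized CPM in WT and 34.7 and 35.9 in *Nrde2*-KO libraries without CHX, and at 112 and 115 in WT and 418 and 376 in *Nrde2*-KO libraries with CHX (1.80, SE 0.06, adjusted p = 1.5e-07). *Ccn1* was at 60.1 and 56.3 and then at 161 and 144 with CHX (1.39, SE 0.07, adjusted p = 3.9e-07), while without CHX it was at 13.5 and 16.2 in WT and 14.2 and 17.9 in *Nrde2*-KO libraries, which overlapped. *Thbs1*, thrombospondin 1, was at 4.05 and 3.45 and then at 12.3 and 9.91 with CHX (1.5), and at 0.998 and 1.30 and then 2.72 and 2.87 without CHX (1.13), a call that was lost without the first WT library (0.98, adjusted p = 0.013). *Vim*, the intermediate filament vimentin, was at 26.3 and 39.2 in WT and 13.8 and 15.2 in *Nrde2*-KO libraries with CHX (−1.14, SE 0.21, adjusted p = 0.0017), and lost its call without the second WT library (−0.85, adjusted p = 0.015), without the first *Nrde2*-KO library (−1.07, adjusted p = 0.020) and without the second (−1.21, adjusted p = 0.011).

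**Figure D2:**
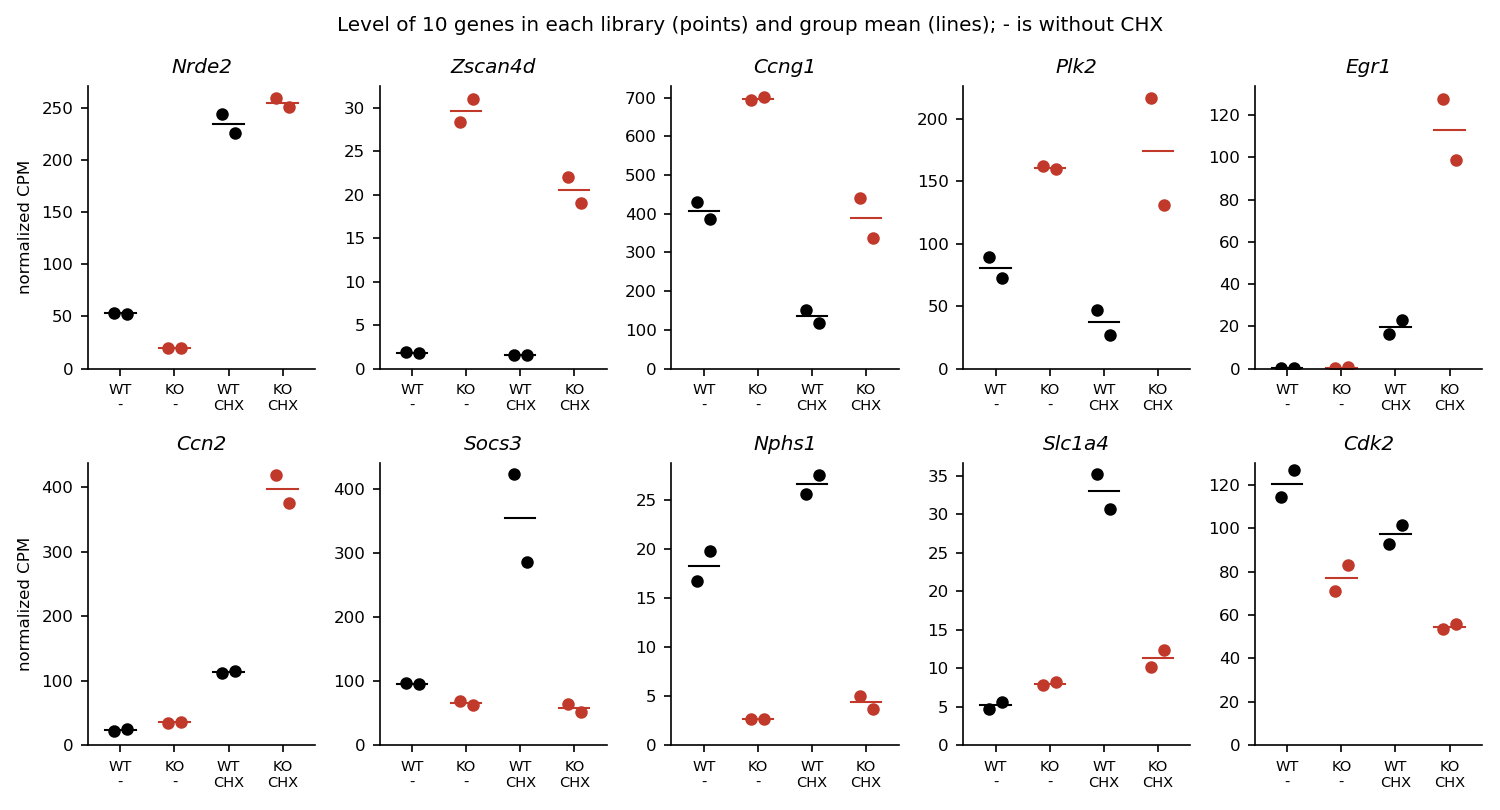
Level of 10 genes (y axis, normalized CPM, a scale of its own per gene, starting at 0) in each library of WT (black) and *Nrde2*-KO cells (red) without CHX (marked -) and with CHX. Points are libraries and lines are means of 2 libraries. *Nrde2* was lower in *Nrde2*-KO cells only without CHX, *Zscan4d* and *Nphs1* differed in both conditions, and *Egr1* and *Ccn2* were highest in *Nrde2*-KO cells with CHX.

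Among the largest decreases with CHX were genes whose mean rose less with CHX in *Nrde2*-KO than in WT libraries, and genes low in *Nrde2*-KO cells in both conditions. A difference of the effects with and without CHX was called for *Socs3*, *Il10* and *Gna14*. Of 17 alternatives, *Il10* kept this call in 5 and *Gna14* in 3. It was not called for *Fgg*, *Shisa3* or *Serpina3i* (for the last −1.80, SE 0.35, adjusted p = 0.017, limma interaction term). *Socs3*, the feedback inhibitor of the JAK-STAT3 pathway through which LIF signals, was at 96.9 and 94.8 normalized CPM in WT and 69.2 and 62.2 in *Nrde2*-KO libraries without CHX. With CHX it was at 423 and 287 in WT and at 64.3 and 51.5 in *Nrde2*-KO libraries (log2 fold change −2.59, SE 0.17, adjusted p = 2.6e-06). CHX thus raised it in both WT libraries and in neither *Nrde2*-KO library. *Serpina3i*, a serine protease inhibitor gene, was under 0.34 in the 4 libraries without CHX and at 9.73 and 7.91 in WT and 1.14 and 1.30 in *Nrde2*-KO libraries with CHX (−2.62, SE 0.18, adjusted p = 3.5e-06). *Il10*, an anti-inflammatory cytokine, was at 6.07 and 3.96 and then at 0.767 and 1.23 with CHX (−2.07, SE 0.28, adjusted p = 0.00020), and under 0.09 without CHX.

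*Gna14*, a G protein alpha subunit, was at 4.00 and 3.28 in WT and 0.297 and 0.477 in *Nrde2*-KO libraries with CHX (−2.62, SE 0.26, adjusted p = 2.6e-05). *Fgg*, the gamma chain of fibrinogen, was at 2.53 and 1.31 and then at 0.223 and 0.150, which is 105 and 54 against 9 and 6 reads (−2.26, SE 0.30, adjusted p = 0.00020). *Shisa3* was at 1.95 and 1.89 and then at 0.420 and 0.150 (−2.07, SE 0.32, adjusted p = 0.00052). *A2m*, alpha-2-macroglobulin, is named here after its values were seen. It was at 59.0 and 46.7 in WT and 11.5 and 14.4 in *Nrde2*-KO libraries with CHX (−2.0, SE 0.20, adjusted p = 3.2e-05), against 17.9 and 20.4 and then 11.2 and 13.6 without CHX. Its difference between the effects (−1.38, SE 0.33, adjusted p = 0.043, limma interaction term) was not called.

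*Nphs1*, which encodes nephrin of the kidney filtration slit, was down-regulated to a similar extent with and without CHX. It was at 25.6 and 27.6 in WT and 5.02 and 3.69 in *Nrde2*-KO libraries with CHX (−2.56, SE 0.14, adjusted p = 7.0e-07), and at 16.8 and 19.9 and then 2.66 and 2.64 without CHX (−2.67, SE 0.17, adjusted p = 1.8e-08). *Gng3*, a G protein gamma subunit, was at 9.10 and 12.1 and then at 1.78 and 2.26 with CHX (−2.25, and −2.48 without). *Calca*, which encodes calcitonin and the peptide CGRP, was at 3.66 and 4.69 and then at 0.569 and 0.702 with CHX (−2.31, and −2.36 without). *Cd180*, a toll-like receptor homolog of immune cells, was at 1.54 and 1.72 and then at 0.124 and 0.201 with CHX (−2.20), while without CHX its value of −1.09 was not called (adjusted p = 0.035).

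Markers of developmental lineages changed in small numbers. Of 24 pluripotency genes 2 were down-regulated with CHX, against 1.70% of all genes, and none up-regulated. *Tcl1*, a coactivator of AKT, was at 64.8 and 71.7 in WT and 23.3 and 29.3 in *Nrde2*-KO libraries (log2 fold change −1.37, SE 0.09, adjusted p = 3.0e-06). *Tdgf1*, the *Nodal* coreceptor, was at 295 and 271 and then at 138 and 142 (−1.01, SE 0.06, adjusted p = 1.7e-06), close enough to the threshold that leaving out the first WT library (−0.95) or the first *Nrde2*-KO library (−0.99) ended the call, as did CPM as deposited. *Pou5f1*, the core pluripotency factor OCT4, was at 608 and 631 and then at 408 and 408 (−0.60, adjusted p = 4.5e-06), and *Nanog* at 396 and 432 and then 426 and 429 (0.05, adjusted p = 0.48).

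Among 20 tested genes of *Nodal* and Wnt signalling and the primitive streak, 3 were down-regulated, against 1.70% of all genes, and none up-regulated. Besides *Tdgf1* these were *Lefty1* and *Lefty2*, secreted *Nodal* inhibitors that *Nodal* itself induces. *Lefty2* was at 210 and 278 in WT and 65.7 and 90.6 in *Nrde2*-KO libraries with CHX (−1.64, SE 0.17, adjusted p = 4.6e-05), and *Lefty1* at 12.6 and 21.5 and then at 4.38 and 4.64 (−1.81, SE 0.23, adjusted p = 0.00015). Both were also down-regulated without CHX, at −1.47 and −2.46.

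Of 16 tested primitive endoderm genes 2 were up-regulated with CHX, against 3.06% of all genes, and 1 was down-regulated, against 1.70%. Higher were the transcription factor gene *Gata6* (0.602 and 0.607, then 4.03 and 1.86, 1.81, adjusted p = 0.00063) and the receptor gene *Pdgfra* (2.53 and 2.06, then 7.49 and 6.32, 1.49, adjusted p = 5.0e-05). Lower was *Foxa2* (1.42 and 2.26, then 0.569 and 0.552, −1.34, adjusted p = 0.00099). *Gata4* of the same lineage was at 7.58 and 6.65 and then at 9.23 and 8.33 (0.29, adjusted p = 0.082). Of 18 tested trophectoderm and simple epithelial genes, *Cdx2*, *Gata3* and *Ly6a* were up-regulated, against 3.06% of all genes, and *Krt42* was down-regulated, against 1.70%. *Gata3* was at 4.53 and 4.54 and then at 11.6 and 11.1 with CHX (1.28, adjusted p = 6.0e-05), and *Cdx2*, which specifies trophectoderm, at 1.28 and 1.34 and then at 3.41 and 3.59 (1.27, adjusted p = 0.0017). The trophectoderm gene *Elf5* stayed at or under 0.150 in all 4 libraries. Leaving out the first *Nrde2*-KO library ended the calls of *Cdx2* (1.30, adjusted p = 0.015) and *Ly6a* (1.47, adjusted p = 0.031), and leaving out the second did so too (1.24 and 1.30, adjusted p = 0.016 and 0.045). *Ly6a* was also not called without the second WT library (0.82, adjusted p = 0.042), nor was *Foxa2* (−1.04, adjusted p = 0.011). The part of a change in cell states in the bulk values was not tested.

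Neural and fibroblast markers, with 11 of 18 tested, held 1 up-regulated gene, against 3.06% of all genes, and 1 down-regulated gene, against 1.70%. The first was *Neurod1* (0.626 and 0.680, then 2.13 and 2.11, 1.39, adjusted p = 0.00031) and the other *Pax6*, an eye and forebrain factor. *Pax6* was at 17.2 and 13.3 in WT and 5.89 and 7.83 in *Nrde2*-KO libraries with CHX (−1.13, adjusted p = 0.00026), against 0.646 and 1.24 and then 0.562 and 0.890 without CHX. Without the first WT library its value was −0.95 and without the first *Nrde2*-KO library −0.93, below the threshold in size. With CHX the 4 neural markers summed to between 220 and 223 normalized CPM in WT and between 189 and 209 in *Nrde2*-KO libraries, the 5 primitive endoderm markers to between 13.4 and 16 and between 23.1 and 28.1, the 4 trophectoderm markers to between 6.22 and 6.5 and between 15.8 and 16, and the 4 markers of 2C-like cells to between 2.77 and 2.89 and between 27.2 and 31.4. The longer lists were mixed. Log2 fold changes were above 0 in 9 of 16 primitive endoderm genes (median 0.13) and in 11 of 18 trophectoderm and simple epithelial genes (median 0.27). Among the lower ones were *Lama1* (−0.71) and *Apoe* (−0.81) of the first list and *Tfap2c* (−0.62) and *Tead4* (−0.53) of the other.

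Of 49 cell cycle genes 3 were up-regulated with CHX, against 3.06% of all genes, and 1 was down-regulated, against 1.70%. These were *Cdkn1a* as above, *Cdkn2b*, which encodes the CDK4 inhibitor p15, *Rb1*, the retinoblastoma protein, and the repressor gene *E2f8*, which was the one that fell. Other listed CDK inhibitor genes were not called, with values from −0.73 for *Cdkn2c* to 0.48 for *Cdkn1c*. *Cdkn2b* was at 2.31 and 1.72 in WT and 7.91 and 5.77 in *Nrde2*-KO libraries (1.64, SE 0.18, adjusted p = 6.5e-05), and its log2 fold change was 0.25 without CHX. *Rb1* was at 20.1 and 16.8 and then at 44.7 and 36.4 (1.12, SE 0.16, adjusted p = 0.00026), with 0.99 without the second WT library and 0.97 without the first *Nrde2*-KO library, and it was up-regulated without CHX too (1.3). *E2f8* was at 15.5 and 21.9 and then at 6.85 and 6.6 (−1.42, SE 0.15, adjusted p = 3.7e-05). *Cdk4* was at 365 and 410 and then at 198 and 204, a log2 fold change of −0.94 (adjusted p = 3.3e-06) that did not reach the threshold of −1, and the median over the list was −0.14.

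Over 34 tested targets of the stress response factor ATF4, enzymes of amino acid synthesis and aminoacyl-tRNA synthetases among them, log2 fold changes had a median of −0.39 with CHX and −0.21 without, and 7 genes were above 0 with CHX. An adjusted p below 0.01 was reached by 23, against 4347 of all 15372 genes. Of the 23, *Ddit3* (0.44) and *Ppp1r15a* (0.46) were higher and the rest lower. Only *Aldh1l2*, a mitochondrial folate enzyme, was called, as down-regulated (5.56 and 5.12, then 2.13 and 2.31, −1.18, adjusted p = 8.9e-05), against 1.70% of all genes. *Atf4* itself was at 491 and 472 in WT and 527 and 478 in *Nrde2*-KO libraries with CHX (0.06), above its WT level of 187 and 210 without CHX.

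No gene was called with CHX among 16 host genes of small nucleolar RNAs, 23 SR and related splicing factors, 30 hnRNP and PTB family genes, 21 factors of nonsense-mediated decay, 30 U1 snRNP, Sm and early spliceosome genes, 13 genes of the TTT complex, PIKKs and R2TP, 18 DNA methylation genes, 26 germline genes, 7 Y-linked genes and 7 mitochondrially encoded mRNAs. Of all genes 3.06% were up- and 1.70% down-regulated, so a lack of calls in lists of this size is near that share. The list medians lay between −0.13 and 0.26. At any size of change, an adjusted p below 0.01 (limma) was reached by between 0 (Y-linked) and 10 (hnRNP and PTB) genes per list, against 4347 of all 15372. Many snoRNA hosts are spliced noncoding targets of translation-dependent decay. In WT cells 10 of the 16 hosts were higher with CHX than without and 6 were lower. The median ratio over the list was 1.56, and the same values over all genes are not given here. *Snhg15* had a ratio of 5.4 in WT and 4.38 in *Nrde2*-KO cells, and *Snhg1* one of 3.52 and 2.78, both named after their values were seen. The host *Gas5* was at 196 and 203 in WT without CHX, 199 and 214 in WT with CHX and 204 and 217 in *Nrde2*-KO libraries with CHX, with no separation of the groups. *Srsf3*, an SR protein gene with a poison exon, was at 277 and 294 in WT and 260 and 266 in *Nrde2*-KO libraries with CHX (−0.12, adjusted p = 0.12). *Smg5*, a decay factor, had the largest change of its list, at −0.68.

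**Figure D3:**
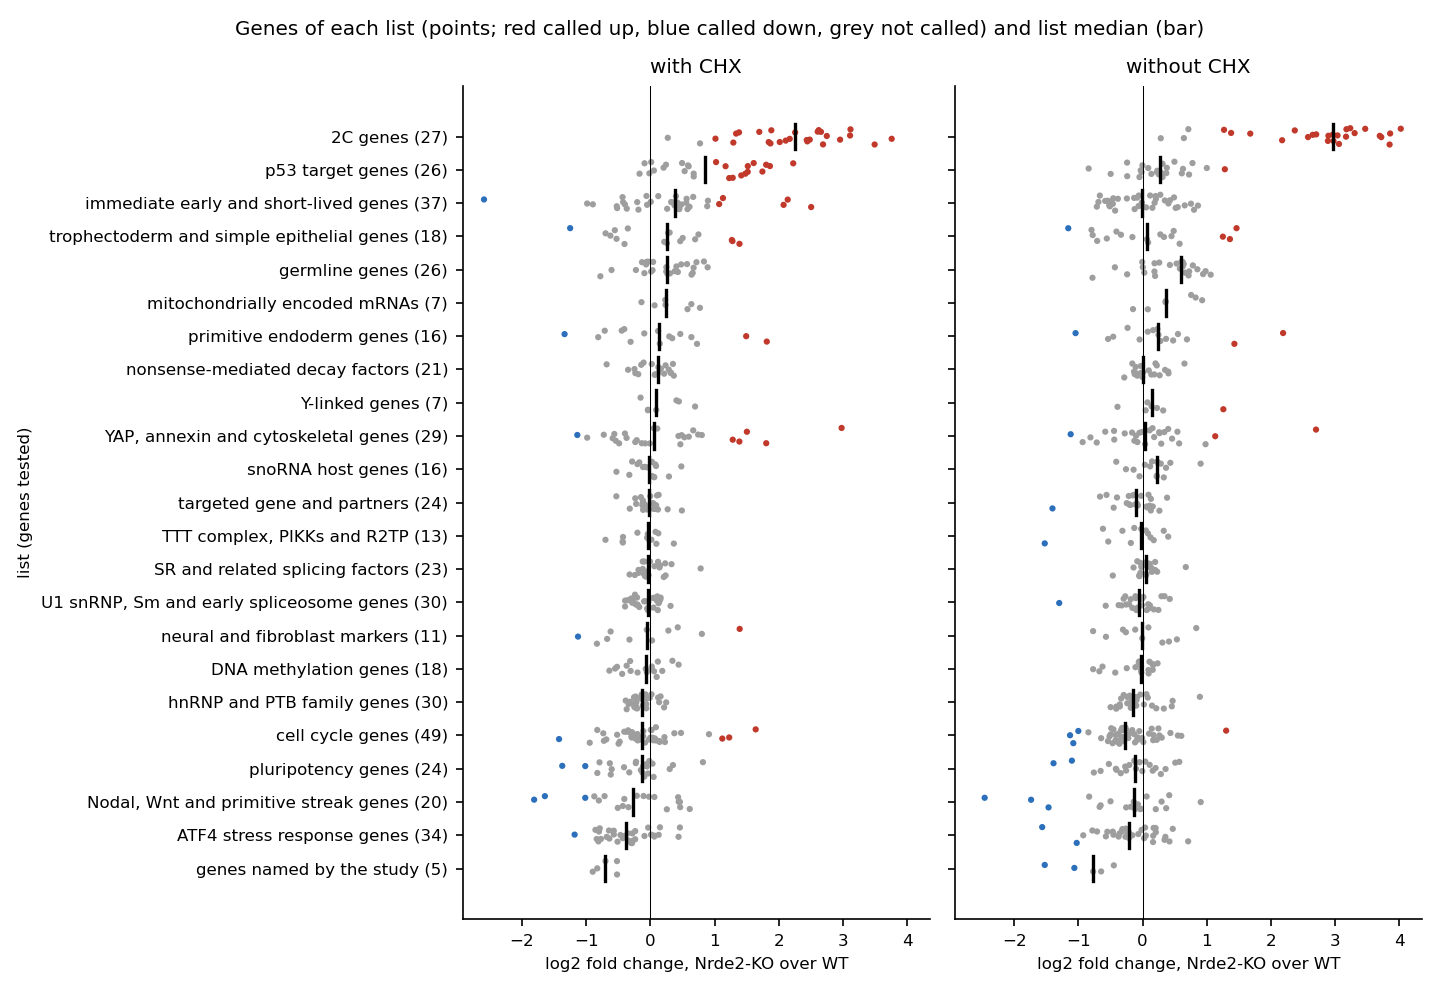
log2 fold change of *Nrde2*-KO over WT (x axis) of each tested gene of 23 lists (rows, number of genes tested in brackets) with CHX (left) and without CHX (right). Red points were up-regulated, blue points down-regulated and grey points not called, and black bars are list medians. The 2C genes lie to the right in both panels, with medians of 2.26 and 2.96, and the p53 targets lie further right with CHX (0.85) than without (0.27).

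*Cdk2*, *Tti1* and *Dnmt1*, with the introns shown above, were lower in *Nrde2*-KO cells with CHX, each by less than the threshold, and so were *Emg1* and *Phb2*, the genes whose shared promoter the study used in its reporter plasmids. *Cdk2*, an S phase kinase, was at 93.0 and 101 normalized CPM in WT and 53.6 and 55.6 in *Nrde2*-KO libraries with CHX (log2 fold change −0.83, SE 0.06, adjusted p = 3.6e-06). *Phb2*, a prohibitin, was at 347 and 371 and then at 191 and 193 (−0.90, SE 0.05, adjusted p = 1.1e-06). *Dnmt1*, the maintenance DNA methyltransferase, was at 509 and 554 and then at 365 and 376 (−0.52, SE 0.05, adjusted p = 2.6e-05), and *Emg1*, a methyltransferase of ribosomal RNA, at 160 and 175 and then at 115 and 118 (−0.52, SE 0.06, adjusted p = 4.8e-05). *Tti1*, a subunit of the TTT complex that stabilizes PI3K-like kinases, was at 86.4 and 80.3 in WT and 29.8 and 27.8 in *Nrde2*-KO libraries without CHX (−1.52) and at 78.3 and 77.9 and then 47.0 and 49.0 with CHX (−0.70, SE 0.06, adjusted p = 1.1e-05). Its effect was smaller with CHX by 0.83 (SE 0.11, adjusted p = 0.0015), which does not reach a difference of 1. The other 4 differed between conditions by −0.18 to 0.25, none with an adjusted p below 0.01.

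Whether the effect of the knockout differed with CHX was tested for every gene as an interaction in 16 libraries. Without CHX, 393 genes were up-regulated (2.56%) and 366 down-regulated (2.38%), from libraries that the comparison with CHX does not share. Of the 471 genes up-regulated with CHX, 247 were up-regulated without it too (52.4%), and of the 262 down-regulated genes 149 were down-regulated too (56.9%). The 224 called up only with CHX had a median log2 fold change of 1.23 with and 0.59 without CHX, and a called difference in 8. The 113 called down only with CHX had −1.21 with and −0.56 without CHX, and a called difference in 7. Genes chosen for a call in a single condition have a smaller median in the other by that choice, so these medians show no gain with CHX. Conversely, 146 genes were called up and 217 called down only without CHX.

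The difference was called for 28 genes, 17 with a more positive effect with CHX (0.111%) and 11 with a more negative one (0.0716%), while 2296 had an unadjusted p below 0.05. Of the 17 genes, 8 were up-regulated with CHX only, namely *Dusp8*, *Egr2*, *Ptgs2*, *Fcgr1*, *Ccn2*, *Ccn1*, *Hs3st3b1* and *Dusp16*. *Dusp8*, a phosphatase of MAP kinases, was at 1.57 and 0.898 in WT and 9.03 and 5.79 in *Nrde2*-KO libraries with CHX and at 0.323 and 0.241 and then 0.25 and 0.139 without (difference 2.64, SE 0.43, adjusted p = 0.0054). *Ptgs2*, the inducible cyclooxygenase, was at 11.2 and 11.1 and then at 52.6 and 38.4 with CHX, against 0.675 and 1.02 and then 1.31 and 1.11 without (difference 1.56, SE 0.25, adjusted p = 0.0054). *Dusp1*, another MAP kinase phosphatase, was at 16.9 and 16.5 and then at 37.2 and 26.3 with CHX and at 11.5 and 14.8 and then 8.06 and 7.65 without, so that the groups changed order (difference 1.61, SE 0.22, adjusted p = 0.0017).

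Others of the 17, among them *Nrde2*, *Mink1*, *Dusp3* and *Sgsm3*, were down-regulated without CHX, and none of these 4 was called with CHX. *Mink1*, a kinase of the STE20 group, was at 31.3 and 31.6 and then at 15.3 and 13.1 without CHX, and at 17.7 and 20 and then 21.5 and 19.5 with CHX, where the groups overlapped (difference 1.26, SE 0.13, adjusted p = 0.00029). The nucleoporin gene *Aaas*, which was not called in either condition, went from 98.3 and 94.1 to 53.7 and 50.2 without CHX and from 64.4 and 63.3 to 73.9 and 67.7 with CHX (difference 1.03, SE 0.11, adjusted p = 0.00029). *Ptgs2*, *Mink1*, *Dusp3*, *Sgsm3* and *Aaas* are named after their values were seen.

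On the negative side 7 of the 11 were down-regulated with CHX only, with *Gna14*, *Il10*, *Slc1a4*, *Socs3* and *Gm7932* the largest differences. *Slc1a4*, a neutral amino acid transporter, was at 35.2 and 30.7 in WT and 10.1 and 12.4 in *Nrde2*-KO libraries with CHX and at 4.70 and 5.57 and then 7.81 and 8.15 without CHX, so the order of the groups was reversed (difference −2.15, SE 0.23, adjusted p = 0.00030). The lincRNA gene *Gm7932* was at 1.44 and 1.70 and then at 0.470 and 0.401 with CHX and under 0.23 without. Of the 28 differences, 5 were called without any 1 of the 8 libraries. *Nrde2*, *Ccn2*, *Slc1a4* and *Socs3* were called in all 18 alternatives tried. The difference of *Dusp8* lost its call without the first (2.53) or second (2.75) WT library without CHX, the second WT library with CHX (2.31), the second *Nrde2*-KO library without CHX (2.46) and the first with CHX (2.33), and that of *Dusp1* without the second WT library without CHX (1.43), either WT library with CHX (1.62 and 1.59) or the first *Nrde2*-KO library with CHX (1.36), all with adjusted p of at most 0.046. In the other direction, *Lgals4* and *Nat8f2* were up-regulated without CHX only. *Lgals4*, a galectin of epithelia, was at 1.26 and 1.42 and then at 6.44 and 4.65 without CHX, and at 4.96 and 4.71 and then 5.27 and 5.42 with CHX.

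**Figure D4:**
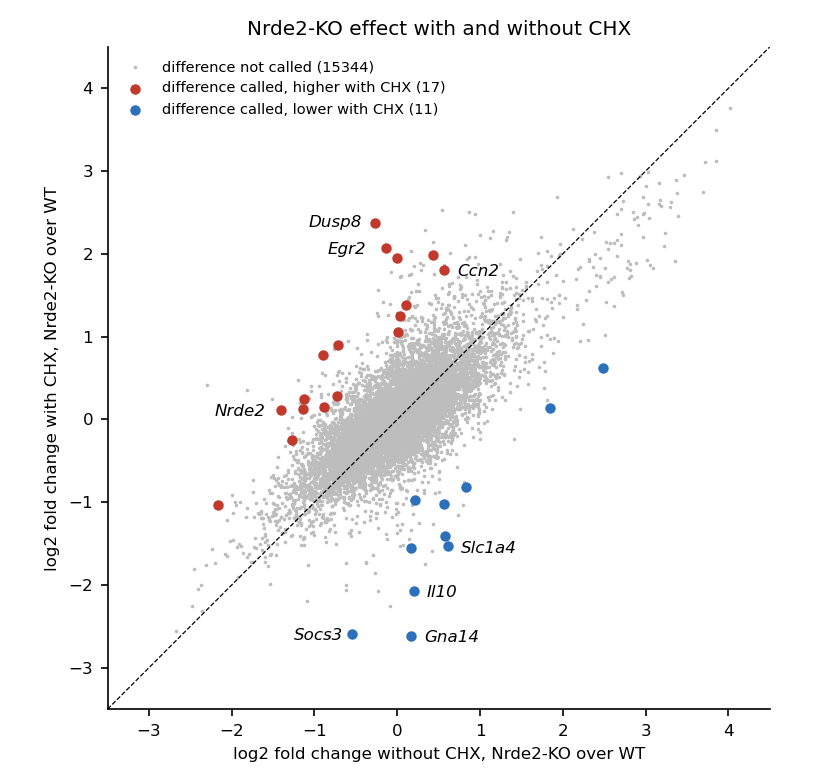
log2 fold change of *Nrde2*-KO over WT with CHX (y axis) against that without CHX (x axis) for the 15372 genes. The dashed line marks equal effects, red points the 17 genes with a called positive difference and blue points the 11 with a called negative difference; *Nrde2* lies at −1.40 on the x axis and 0.12 on the y axis, and *Socs3* and *Gna14* lie near −2.6 on the y axis.

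Libraries that the comparison with CHX did not use gave the same direction for most called genes. In the first *Nrde2*-KO experiment, done without CHX, 476 genes were up-regulated (3.10%) and 294 down-regulated (1.91%). Of the 471 genes up-regulated with CHX, 453 were higher there too with a median log2 fold change of 1.11, and 242 were called up. Of the 262 down-regulated genes, 244 were lower with a median of −1.0, and 130 were called down. In Ribo-seq of *Nrde2*-KO cells, which sequences the RNA under ribosomes, 12779 of the genes were measured, with 496 up-regulated (3.88%) and 388 down-regulated (3.04%). There 254 of 271 measured up-regulated genes were higher (median 1.01, 94 called) and 181 of 205 measured down-regulated genes were lower (median −0.81, 87 called). *Nrde2* itself was at −2.16 in Ribo-seq. Reads of the deleted exons and of the other exons of *Nrde2* were not counted apart in these tables.

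*Ccdc174-dTAG* cells, in which 500 nM dTAG-13 given for 24 h leads to degradation of the tagged protein, had 30 up-regulated (0.195%) and 102 down-regulated genes (0.664%) with CHX, against WT libraries of their own. Of the 262 genes that *Nrde2*-KO cells expressed less with CHX, 251 were lower there too, with a median of −0.67, and 53 were down-regulated. Of the 471 up-regulated genes, 318 were higher, with a median of 0.16, and 13 were up-regulated and 5 down-regulated. *Nphs1* (−1.42), *Gng3* (−1.64), *Socs3* (−1.65), *Serpina3i* (−1.25) and *Gna14* (−1.54) were down-regulated in both. The 2C genes had a median of 0.00 in *Ccdc174-dTAG* cells with CHX and the p53 targets one of 0.12, with none of either called. *Egr1* (−1.76), *Egr2* (−1.28) and *Fos* (−1.55), up-regulated in *Nrde2*-KO cells, were down-regulated in *Ccdc174-dTAG* cells. The difference between the 2 depletions was not tested.

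*Mtrex*-KO cells, without CHX, had 2381 up-regulated (15.5%) and 1621 down-regulated genes (10.5%), so a shared call is more frequent by background alone. They were made with 100 nM 4OHT for 3 d against WT cells without it, so an effect of 4OHT that both knockouts share cannot be told apart here either. Of the 471 genes 320 were up-regulated there, with a median of 1.81, and 14 were down-regulated. Of the 262 genes 104 were down-regulated, with a median of −0.69, and 29 were up-regulated. Of the 27 tested 2C genes 24 were up-regulated in *Mtrex*-KO cells, with a median of 3.46, and of the 26 p53 targets 16, with a median of 1.16. *Egr1* (3.12), *Jun* (3.67), *Ccn1* (4.14) and *Ccn2* (4.35) had log2 fold changes above 3 in *Mtrex*-KO cells, while *Socs3* (−0.36), *Gng3* (0.33) and *Nphs1* (−0.76) lay within 1 of 0.

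A larger share of genes with short introns was down-regulated. Among the 13589 protein-coding genes tested, 399 were up- and 244 down-regulated, and the median intron length of a gene had a median of 844 bases in down-regulated, 1798.5 in up-regulated and 1578.75 in all genes. Of 2367 genes with a median intron length up to 500 bases, 89 were down-regulated (3.76%) and 48 up-regulated (2.03%). In the 3031 genes between 2000 and 4000 bases, 33 were down-regulated (1.09%) and 102 up-regulated (3.37%). The median log2 fold change with CHX went from −0.14 in the shortest group over −0.04 (500 to 1000 bases) and 0.03 (1000 to 2000 bases) to 0.05 in both longer groups. Without CHX it went from −0.20 to 0.07, and in *Ccdc174-dTAG* cells with CHX from −0.03 to 0.04. The groups also differed in level, with WT medians between 13.5 and 33.6 normalized CPM, and the part of level in this relation was not tested. These are descriptions over genes, which are not independent replicates.

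**Figure D5:**
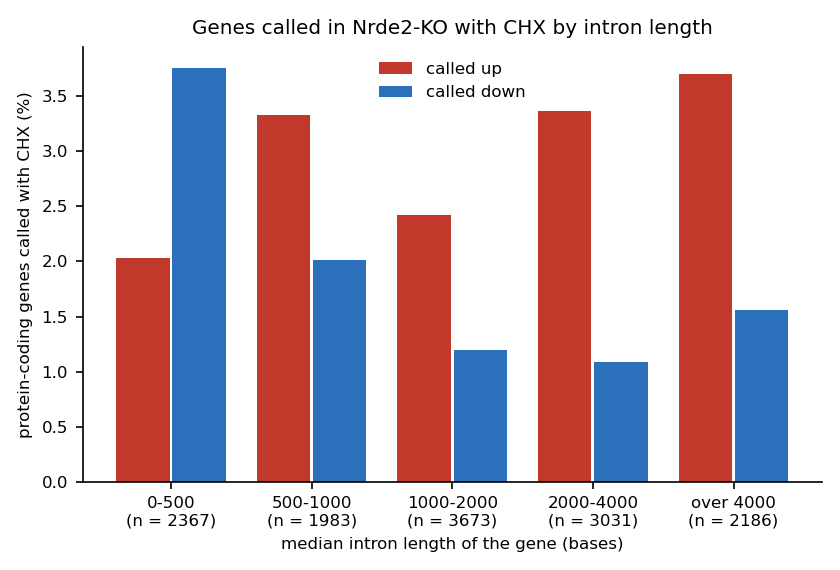
Share of protein-coding genes up-regulated (red) and down-regulated (blue) with CHX (y axis, percent) by the median intron length of the gene (x axis, bases, number of genes below each group). The share of down-regulated genes was 3.76% in the group with the shortest introns and between 1.09 and 2.02% in the others.

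The match of annotated 5′SSs to the consensus is described for the protein-coding genes with introns. The median match of a gene averaged 6.33 of 9 positions in down-regulated, 6.48 in up-regulated and 6.38 in all genes, and it was 6 or less in 62.9%, 51.0% and 55.2% of them. The lowest match of a gene averaged 5.06, 5.37 and 5.09, and it was 4 or less in 23.3%, 14.0% and 18.4%. Among the 308 genes with a median match above 7, 26 were up-regulated (8.44%) and 10 down-regulated (3.25%). The part of level and of intron number in these shares was not tested. Down-regulated genes had a median of 9 introns, as did all genes, and up-regulated genes 7. Among gene types, 20 of 355 lincRNA genes (5.63%) and 22 of 444 processed pseudogenes (4.95%) were up-regulated, against 2.94% of protein-coding genes, and none of 52 snoRNA genes was called.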

How the data were processed

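RNA was rRNA-depleted total RNA, sequenced from stranded libraries as 50-nt single-end reads. The authors aligned RNA-seq reads with STAR (version 2.7.3a) to the mm10 genome. They used featureCounts with GENCODE genes, keeping reads with a unique place and the right strand, and deposited the result as CPM per gene and library. Whether introns were counted is not given in the sources used here, and reads of near-identical genes are lost by unique mapping. Whole reads could be recovered from the CPM (100% of values within 0.1 of a whole number), with between 89.3 and 92.1% of each CHX library in genes.

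The CPM were divided by median-of-ratios factors over all 28 RNA-seq libraries, 0.25 was added, and log2 values were tested with limma 3.58.1 (trend, R 4.3.3), since the deposited unit is CPM. The fit with CHX held 8 libraries, that without CHX 20, and the interaction 16. Fold changes are on the log2(CPM + 0.25) scale, which understates changes of low genes. Adjusted p-values are Benjamini-Hochberg values over all 15372 genes, with thresholds of 0.01 and a log2 fold change of 1. edgeR 4.0.16 and DESeq2 1.42.0 on the recovered reads, other pseudocounts (0.1 and 1), filters, scaling, fits, a replicate block and leaving out each library were alternatives. Only the limma and edgeR tests of the effect with CHX, without CHX and of their difference were checked on simulated data. Figures were drawn with Python 3.11.15 and matplotlib 3.10.9.

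The 23 gene lists, with 569 names, and the genes compared were chosen with earlier results of these data known. Named genes were *Nrde2*, 5 genes that the study names (*Cdk2*, *Tti1*, *Dnmt1*, *Emg1* and *Phb2*), the 10 largest called increases and decreases of at least 1 normalized CPM in the higher group, the 5 largest called differences each way, every list member called with CHX with up to 3 uncalled members of the highest level per list, and *Upf1*, *Srsf3*, *Gas5* and *Atf4*. Gene models came from GENCODE M21 on GRCm38, which holds 55154 of the 55335 genes, and 181 had no model. Not every called difference is reported here.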

Additional observations from a re-analysis of the deposited data

Results flagged for a closer look

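The effect of *Nrde2* loss differed with and without CHX, by the interaction test itself, in these 13 genes, whose values are differences of log2 fold changes (with CHX minus without). They are *Gna14* (−2.79), *Il10* (−2.28), *Slc1a4* (−2.15), *Socs3* (−2.05), *Gm7932* (−1.98), *Ccn2* (1.24), *Ccn1* (1.28), *Nrde2* (1.52), *Dusp1* (1.61), *Scube3* (1.68), *Fcgr1* (1.95), *Egr2* (2.21) and *Dusp8* (2.64). *Nrde2*, *Ccn2*, *Slc1a4* and *Socs3* were called in each of the 18 alternatives, with differences between 1.47 and 1.58, 1.14 and 1.33, −2.29 and −2.01, and −2.33 and −1.77. *Ccn1* was called in 15 and *Dusp1* in 13 of 18 alternatives. *Dusp8* and *Gm7932* were called in 8 of 17 each, *Il10* in 5 of 17 with an adjusted p of up to 0.26, *Egr2* and *Gna14* in 3 of 17 each and *Fcgr1* in 3 of 15. *Fcgr1* had no read in any library without CHX and 3 and 4 reads in WT against 45 and 39 in *Nrde2*-KO libraries with CHX, so its value depends on the number added before the logarithm. *Scube3*, a secreted matrix protein, was at 46.9 and 35.0 normalized CPM in WT and 72.0 and 67.4 in *Nrde2*-KO libraries with CHX, and at 25.3 and 17.1 and then 13.1 and 9.24 without CHX, and its difference was called in 9 of 18 alternatives. No group had enough libraries to look for a single outlying one.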

How the results depend on the processing

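No called value of a named gene changed sign under any alternative, while 11 of 68 uncalled ones did with CHX. Of 84 named genes called with CHX, 62 were called in all settings, and of 13 called differences 4. With 1 added before log2, 231 genes were up- and 168 down-regulated with CHX, and 191 were up-regulated without CHX. Leaving out 1 library at a time gave between 309 and 516 up-regulated genes with CHX (309 without the first *Nrde2*-KO library) and between 258 and 376 without CHX (258 without the second WT library). With CHX, 409 of 733 genes were called whichever library was left out. Called differences were fewest and most variable. The 17 positive ones became 11 with no filter, 6 with only the compared libraries, 8 in edgeR, 32 in DESeq2 and 3 to 20 without 1 library, with 3 without the first *Nrde2*-KO and 4 without the second WT library with CHX. The 11 negative ones became 6 with 0.1 added, 2 with only the compared libraries, 7 in edgeR, 20 in DESeq2 and 2 to 6 without 1 library. Among lists, pluripotency genes down went from 2 to 1 with CPM as deposited and to between 1 and 2 without 1 library. Trophectoderm genes up went from 3 to 1 with 1 added or no filter and to between 1 and 3 without 1 library, and immediate early genes up from 5 to 3 with no filter and to between 3 and 6 without 1 library. The cause was not tested. In 140 of the 471 up-regulated genes the WT mean was under 0.5 CPM, a level that rests on few reads.

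Replicate numbers are shared between groups, but the labels tie them to no culture or batch, and there are only 2. Differences between replicate 1 and 2 correlated across genes between 0.118 and 0.359 over the 6 pairs of groups. With the replicate block, 483 genes were up- and 269 down-regulated with CHX, and called differences rose to 33 positive and 34 negative.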
